A study of Phaseolus vulgaris with 36 samples.

Results

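PvPdh1 (Phvul.003G252100) is the common bean homologue of soybean Pdh1, a dirigent gene of pod twisting. It was followed through pod development by its identifier, which matched 1 of 36995 transcripts and 1 of 27433 genes in the deposited tables. Dirigent proteins guide the coupling of monolignol radicals, the building blocks of lignin and lignans. In soybean, Pdh1 is expressed in the lignin-rich inner sclerenchyma of the pod wall, and it raises the twisting force of drying pod walls that splits the pod. The soybean allele of shattering-resistant cultivars carries a premature stop codon, so that there the difference lies in the protein rather than in the amount of transcript.

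RNA was measured in untreated pods of 4 accessions of Phaseolus vulgaris at 3 stages, with 3 libraries in each of the 12 groups and 36 in all. The stages were the first pod (R7), pod filling (R8) and the mature pod (R9). The labels give G12873 as wild type and fully dehiscent, ICA Bunsi and SXB405 as domesticated and of middle dehiscence, and MIDAS as domesticated and indehiscent, that is, with pods that stay closed. G12873 is the only wild and the only fully dehiscent accession, so accession, domestication and dehiscence cannot be told apart for it. MIDAS is the only indehiscent accession, so accession and dehiscence cannot be told apart for it. ICA Bunsi and SXB405 share its domesticated label, while its contrasts with G12873 differ in domestication too. Separate plants for the 3 libraries of a group are not stated in the labels. The p-values therefore cover the spread among the libraries sequenced, part or all of which may be technical. The pods were sequenced whole, so fewer cells that express a gene and less RNA per cell cannot be told apart. No pod marker genes could be checked, because none of the 27433 identifiers (0) matched the reference table of gene names. The position of PvPdh1 in the genome and its sequence in the accessions were not analysed here.

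Total estimated counts ranged from 2032506 to 15202576 per library. A set of 10 abundant genes that vary together took from 1.96% to 86.5% of them, and over 50% in 8 libraries. 2 of these were MIDAS libraries, R8 replicate 2 and R9 replicate 1. SXB405 had its replicate 1 of R9 among them, ICA Bunsi its replicate 3 of R7 and its replicates 1 and 3 of R9, and G12873 its replicates 1 and 2 of R7. The levels below are therefore CPM (counts scaled to a common library size, with the sizes adjusted by TMM, a method that allows for such dominant genes), unless TPM is named. The estimated count of PvPdh1 was a whole number in all 36 libraries (within 1e-06), as for 61.3% of the genes with a count. Its counts lay between 1 and 1497. The lowest were 1 and 6 in G12873 R7 replicates 1 and 2, for which exact Poisson 95% intervals of counting error alone run from 0.0841 to 18.5 CPM and from 2.23 to 13.2 CPM.

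PvPdh1 was most abundant in the indehiscent accession. In MIDAS at R7 the 3 libraries had 35.1, 49.6 and 45.3 CPM, a mean of 43.3 ± 7.45 (SD, n = 3, as for the means below). At R8 they had 82.2, 75.9 and 89.7 CPM, with a mean of 82.6 ± 6.87. At R9 they had 102, 168 and 169 CPM, with a mean of 146 ± 38.2. In CPM the 3 stages of MIDAS did not overlap. In deposited TPM they overlapped, with 45.2 to 87.9 at R7, 34.8 to 183 at R8 and 29.8 to 274 at R9. With TPM rescaled over the genes outside the abundant set they overlapped as well. Among all genes tested, 25.3% had every MIDAS library of R8 above every one of R7 in CPM. For 23.0% every one of R9 was above R8 and for 24.2% above R7, so that this separation was common. The lowest library at R9 was replicate 1, one of the 8 in which the abundant set took over 50%.

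The wild, fully dehiscent G12873 had 3.32, 6.07 and 6.66 CPM at R7, with a mean of 5.35 ± 1.78. It had 18.8, 12.1 and 14.8 CPM at R8, with a mean of 15.3 ± 3.37. At R9 it had 8.64, 23.4 and 15.9 CPM, with a mean of 16.0 ± 7.38. All R8 and R9 libraries of G12873 lay above its R7 libraries, which was so for 21.7% of all genes tested at R8 and for 22.3% at R9. Those of R9 lay on both sides of those of R8.

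In ICA Bunsi the libraries had 7.68, 6.88 and 6.38 CPM at R7 (mean 6.98 ± 0.654). They had 13.8, 9.54 and 15.5 CPM at R8 (mean 12.9 ± 3.07) and 19.4, 15.0 and 14.0 CPM at R9 (mean 16.1 ± 2.85). R7 again lay below R8 and R9, as for 27.9% and 22.7% of all genes tested, and the libraries of R8 and R9 overlapped. SXB405 had 7.49, 6.85 and 7.21 CPM at R7 (mean 7.18 ± 0.320) and 7.14, 6.02 and 11.3 CPM at R8 (mean 8.14 ± 2.76). At R9 it had 7.56, 24.2 and 7.42 CPM (mean 13.0 ± 9.62). In SXB405 the libraries of all 3 stages overlapped, and R9 replicate 2 alone stood apart, as the highest library of the 3 dehiscent accessions.

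Ordered by their mean, the 12 groups ran from G12873 at R7 through ICA Bunsi R7, SXB405 R7, SXB405 R8, ICA Bunsi R8, SXB405 R9, G12873 R8, G12873 R9 and ICA Bunsi R9 to MIDAS at R7, R8 and R9. Each neighbouring pair among the first 9 groups overlapped. In CPM, the steps from ICA Bunsi R9 to MIDAS R7, from there to MIDAS R8 and on to MIDAS R9 had no overlap. The lowest of the 9 MIDAS libraries, 35.1 CPM at R7, was above the highest of the 27 other libraries, 24.2 CPM at R9. Of the 20966 genes tested, 86 (0.41%) had every MIDAS library above every other library in this way.

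**Figure D1:**
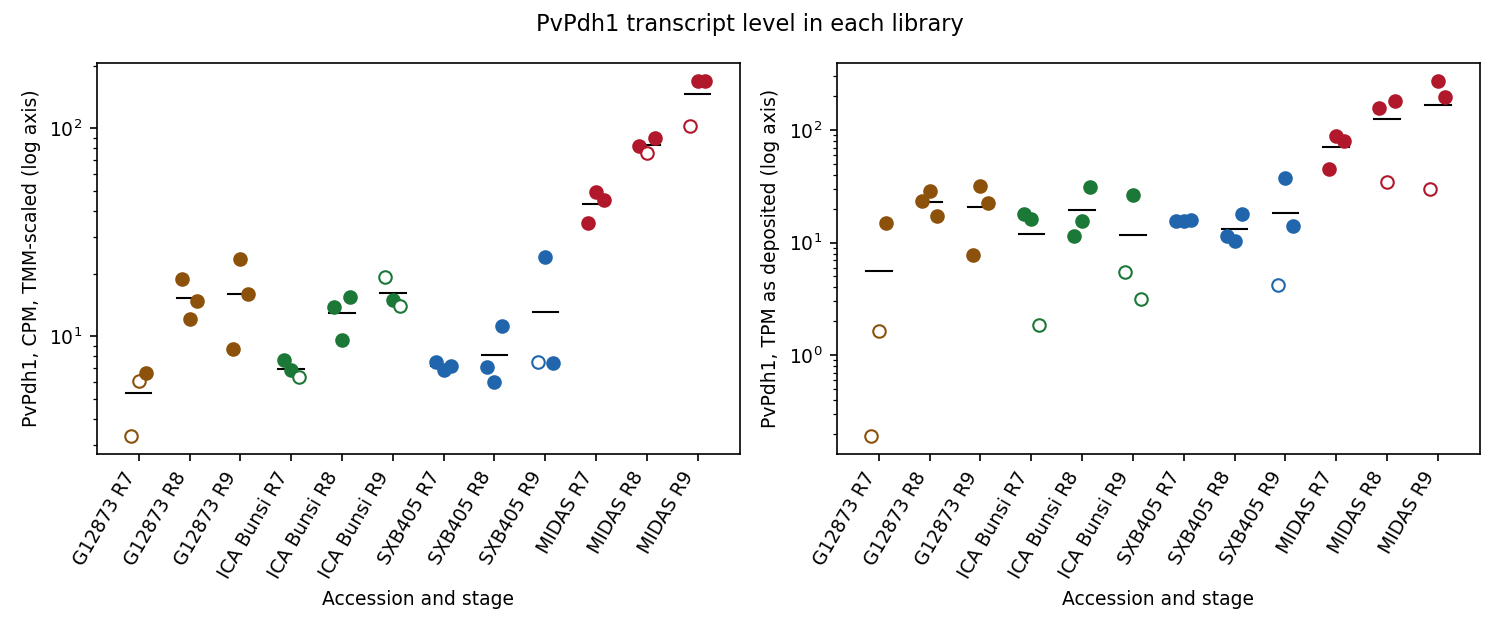
PvPdh1 in each of the 36 libraries, as TMM-scaled CPM (left) and as deposited TPM (right), both on log axes. Points are libraries, bars are means of 3, and open points are the 8 libraries in which the abundant set took over 50% of the counts. In CPM every MIDAS library is above 35 and every other library is below 25, while in TPM the open points fall below the rest of their groups.

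On the per-length scale of the deposited TPM values, PvPdh1 ranged from 29.8 to 274 TPM in MIDAS with a median of 87.9, and from 0.191 to 37.1 TPM in the other accessions with a median of 15.6. These ranges overlapped. In the 28 libraries in which the abundant set took at most 50%, the 7 of MIDAS had 45.2 TPM or more and the 21 others 37.1 TPM or less. Within a library, a gene's rank does not depend on that scaling. In MIDAS PvPdh1 exceeded from 92.5% to 98.8% of all genes in TPM, and in the other accessions from 56.8% to 89.3%. How many of all genes show such a separation in TPM, or such a difference in rank, was not counted.

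The accession pairs were compared at each stage, 18 contrasts in all, to ask whether the level of this twisting gene follows the dehiscence labels. MIDAS was higher in all 9 contrasts with the other accessions. A gene was called when its change was at least 2-fold and its p from edgeR's quasi-likelihood test, Benjamini-Hochberg adjusted over the 20966 genes, was under 0.05.

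At R7 the log2 difference of MIDAS was 2.79 from G12873 (SE 0.43, adjusted p = 1.12e-05), a 6.94-fold higher level. It was 2.62 from ICA Bunsi (SE 0.36, adjusted p = 3.27e-06) and 2.59 from SXB405 (SE 0.35, adjusted p = 2.11e-06). The background was large, with 28.4%, 21.2% and 18.6% of the genes called in these contrasts. The lowest MIDAS library at R7 was 35.1 CPM, and the highest of the 9 others was 7.68 CPM, a separation that 14.1% of the genes shared.

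At R8 the log2 difference was 2.44 from G12873 (SE 0.34, adjusted p = 1.83e-06), 2.68 from ICA Bunsi (SE 0.35, adjusted p = 1.23e-06) and 3.34 from SXB405 (SE 0.36, adjusted p = 3.01e-08). Here 28.8%, 16.4% and 24.7% of the genes were called. The MIDAS libraries began at 75.9 CPM, and the others ended at 18.8 CPM, with 11.5% of the genes separated in this way.

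At R9 the mature MIDAS pods exceeded those of G12873 by a log2 difference of 3.19 (SE 0.35, adjusted p = 7.54e-08), or 9.14-fold. The difference was 3.19 from ICA Bunsi (SE 0.37, adjusted p = 2.18e-07) and 3.49 from SXB405 (SE 0.36, adjusted p = 2.35e-08), the latter 11.2-fold. The called genes were 19.0%, 15.3% and 21.1% of those tested. All MIDAS libraries of R9 were above all others of that stage, as for 6.05% of the genes. Counting PvPdh1, 492 genes were higher in MIDAS by at least as much against SXB405, 615 against ICA Bunsi and 646 against G12873. Over all 9 contrasts this number was largest against G12873 at R8, with 1531 genes. The fold against SXB405 rested in part on SXB405 R9 replicate 2, without which the log2 difference was 4.29. Being called higher in MIDAS in all 9 contrasts was shared by 102 of the 20966 genes, or 0.487%.

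These 9 calls held with other count models, other scalings of counts and each single library left out, but 7 were lost on deposited TPM. Of the 162 alternative fits of the 9 contrasts, some were the main fit read without the 2-fold minimum, which could not lose a call. Over all 162 the log2 difference ran from 2.06 to 4.29, and 155 of the fits made the call. The other 7 were all fits of limma on log2(TPM + 1) of the deposited TPM, a scale on which the abundant set moves every other gene, with log2 differences from 2.06 to 3.05 and adjusted p up to 0.337. With TPM rescaled over the genes outside the abundant set, that fit called all 9, with log2 differences from 2.07 to 3.78.

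**Figure D2:**
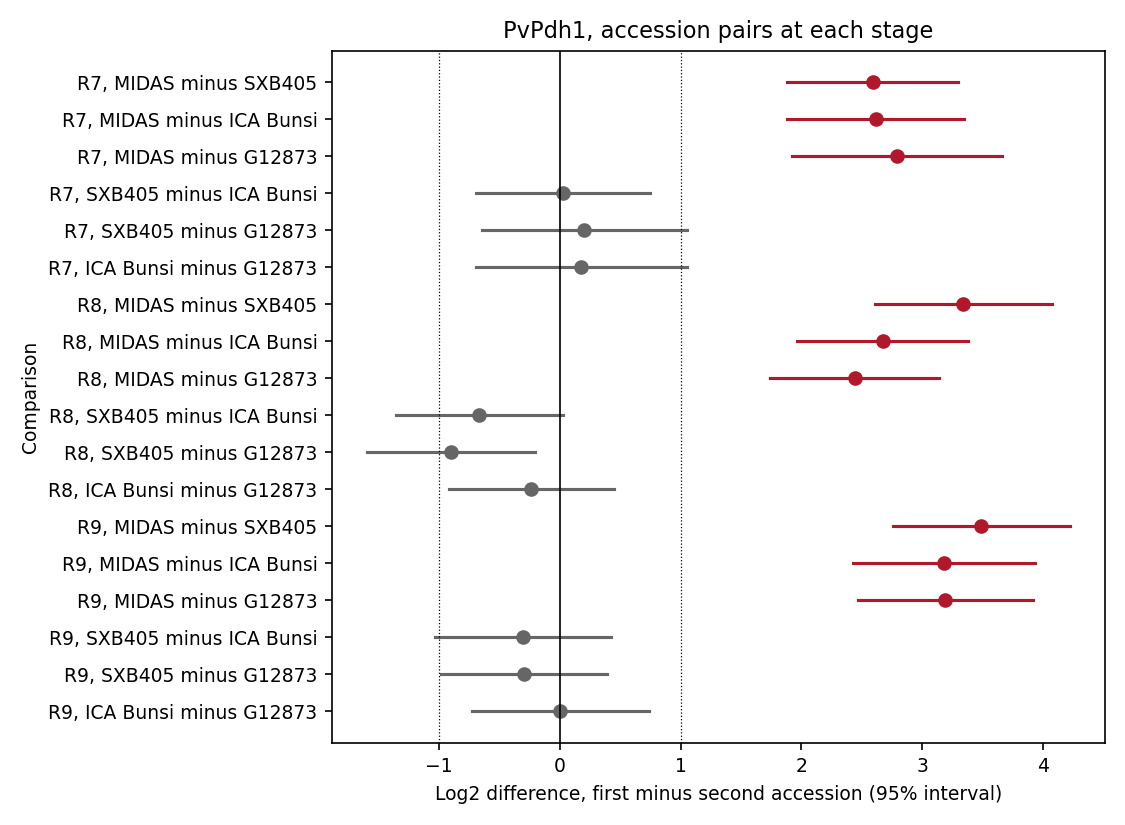
Log2 difference of PvPdh1 between accessions at each stage (first minus second named), with 95% intervals from the edgeR fit over 36 libraries. Red marks called contrasts, grey the others, and dotted lines a 2-fold difference. All 9 contrasts with MIDAS lie above 2, and the 9 others lie between -0.90 and 0.20.

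Among the 3 accessions with dehiscent pods, none of the 9 contrasts was called (0), although their labels run from middle to full dehiscence. At R7 the log2 difference of SXB405 from ICA Bunsi was 0.027 (95% interval -0.69 to 0.74, adjusted p = 0.987). That of SXB405 from G12873 was 0.20 (-0.64 to 1.05, adjusted p = 0.793) and that of ICA Bunsi from G12873 was 0.18 (-0.69 to 1.05, adjusted p = 0.869). These intervals do not exclude a 2-fold higher level than in G12873, where replicates 1 and 2 had 1 and 6 counts. Of the genes tested, 4.29%, 15.3% and 7.36% were called in these 3 contrasts. On log2(TPM + 1), limma called SXB405 higher than G12873 at R7, by 2.18 with deposited TPM (adjusted p = 0.0438) and by 1.41 with rescaled TPM (adjusted p = 0.0432).

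At R8 SXB405 had the lowest level of the 3, with a log2 difference of -0.90 from G12873 (95% interval -1.59 to -0.21, adjusted p = 0.0610) and of -0.67 from ICA Bunsi (-1.36 to 0.025, adjusted p = 0.225). Without SXB405 R8 replicate 3 the difference from G12873 was -1.21 (adjusted p = 0.0334), which was a call. With library sizes counted outside the abundant set it was -1.04 (adjusted p = 0.0425). ICA Bunsi and G12873 differed at R8 by -0.23 (-0.92 to 0.45, adjusted p = 0.665). The genes called were 14.8% for SXB405 against G12873, 7.48% for SXB405 against ICA Bunsi and 17.6% for ICA Bunsi against G12873.

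At R9 ICA Bunsi and G12873 had nearly equal means, with a log2 difference of 0.0062 (95% interval -0.72 to 0.74, adjusted p = 1). SXB405 differed by -0.30 from both ICA Bunsi (-1.03 to 0.43, adjusted p = 0.642) and G12873 (-0.99 to 0.39, adjusted p = 0.651). Without SXB405 R9 replicate 2, the library at 24.2 CPM, these differences were -1.11 (adjusted p = 0.0377) and -1.10 (adjusted p = 0.0250), both calls. At R9 the genes called were 11.0% for ICA Bunsi against G12873, 7.58% for SXB405 against ICA Bunsi and 10.3% for SXB405 against G12873.

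The series design compares stages, and here the question is whether PvPdh1 rises as the pod matures. Its mean CPM was higher at R9 than at R7 in all 4 accessions, and the net rise was called in 3 of them. In MIDAS the log2 change was 1.76 (SE 0.33, adjusted p = 6.24e-05), a 3.39-fold rise. It was 1.37 in G12873 (SE 0.42, adjusted p = 0.0116) and 1.19 in ICA Bunsi (SE 0.37, adjusted p = 0.0110). In SXB405 it was 0.86 (SE 0.34, adjusted p = 0.0377), short of the 2-fold minimum. That change rested on R9 replicate 2, without which it was 0.056. Between R7 and R9 many genes changed, with 39.8% called in MIDAS, 30.0% in G12873, 32.7% in ICA Bunsi and 34.6% in SXB405, so that a call at this interval was common.

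The steps within this interval were then taken apart, and whether they differ between accessions was not tested. In G12873 the rise lay between R7 and R8, with a log2 change of 1.29 (SE 0.42, adjusted p = 0.0201, 24.7% of genes called). From R8 to R9 the change there was 0.080 (95% interval -0.60 to 0.76, adjusted p = 1), a step at which no gene was called by edgeR (0.0%), while 1209 genes had an unadjusted p under 0.05. In MIDAS both steps were upward and of like size, 0.93 from R7 to R8 (SE 0.33, adjusted p = 0.0358, 16.8% called) and 0.83 from R8 to R9 (SE 0.32, adjusted p = 0.0415, 30.3% called). Both passed the adjusted p and missed the 2-fold minimum, and neither was a call.

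In ICA Bunsi the log2 change was 0.87 from R7 to R8 (SE 0.35, adjusted p = 0.0574, 23.2% called) and 0.32 from R8 to R9 (SE 0.36, adjusted p = 0.565, 15.4% called). In SXB405 it was 0.18 from R7 to R8 (SE 0.34, adjusted p = 0.737, 25.2% called) and 0.68 from R8 to R9 (SE 0.34, adjusted p = 0.266, 4.96% called). Its R9 value turned on replicate 2, without which the step from R8 was -0.12 and the net change from R7 was 0.056.

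The rises outside MIDAS were less stable than the accession difference. In G12873 the call from R7 to R8 was lost without R7 replicate 2, R7 replicate 3 or R8 replicate 1 (adjusted p = 0.0601, 0.0834 and 0.0709). The net call was lost without R7 replicate 3 or R9 replicate 2 (adjusted p = 0.0636 and 0.0870), and both were lost when only the groups compared were fitted (adjusted p = 0.112 and 0.120) or when the 8 libraries over 50% were left out (adjusted p = 0.102 and 0.0674). The latter leaves R7 replicate 3 as the only G12873 library of that stage, which is assumed to vary like the other groups. The net call in ICA Bunsi was lost without R9 replicate 1 (log2 change 1.00, adjusted p = 0.0597). It was also lost without the 8 libraries over 50%, where R9 replicate 2 is likewise the only R9 library (1.07, adjusted p = 0.118). With library sizes outside the abundant set it was 0.80 (adjusted p = 0.0932), and on log2(TPM + 1) it was 0.65 with rescaled TPM (adjusted p = 0.442) and -0.11 with deposited TPM (adjusted p = 0.953). In SXB405 the net change became a call without R9 replicate 1 or 3 (1.14 and 1.15, adjusted p = 0.0110 and 0.00972). The net call in MIDAS held with each library left out (1.63 to 1.98). On log2(TPM + 1) it was 0.78 with deposited TPM (adjusted p = 0.648) and 1.36 with rescaled TPM (adjusted p = 0.0757).

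**Figure D3:**
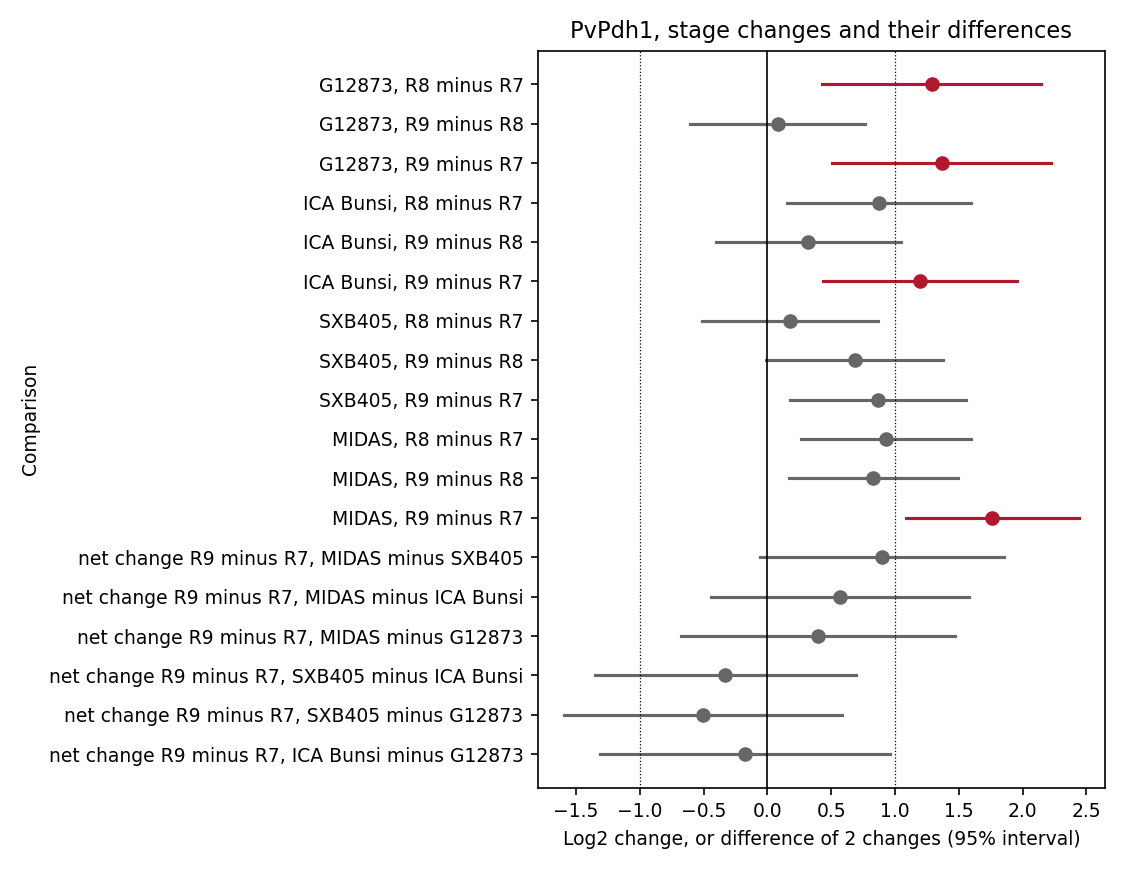
Log2 change of PvPdh1 between stages in each accession, and below it the difference of the net R9 minus R7 change between accessions, with 95% intervals from the edgeR fit. Red marks called contrasts, grey the others. The called changes are the net rises of MIDAS, G12873 and ICA Bunsi and the step from R7 to R8 in G12873, and the intervals of all 6 differences of net change cross 0.

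Whether the net change itself differed between accessions was tested with interaction terms for all 6 pairs, and none was called (0). The largest was that of MIDAS over SXB405, with a log2 difference of 0.90 (95% interval -0.056 to 1.86, adjusted p = 0.209). Without SXB405 R9 replicate 2 it was 1.71 (adjusted p = 0.00886), a call. MIDAS over ICA Bunsi was 0.57 (-0.44 to 1.58, adjusted p = 0.522) and MIDAS over G12873 was 0.40 (-0.68 to 1.47, adjusted p = 0.658). The direction of the last turned on log2(TPM + 1), to -1.58 with deposited TPM (adjusted p = 0.347) and -0.89 with rescaled TPM (adjusted p = 0.398). The other 3 pairs, SXB405 over ICA Bunsi, SXB405 over G12873 and ICA Bunsi over G12873, lay between -0.50 and -0.17, with intervals from -1.59 to 0.96. The share of genes called in net change was 12.3% for MIDAS over SXB405, 8.1% over ICA Bunsi and 16.4% over G12873, and 1.2% for SXB405 over ICA Bunsi, 9.94% for SXB405 over G12873 and 1.56% for ICA Bunsi over G12873. The intervals of the 3 pairs with MIDAS include a 2-fold larger rise in MIDAS, and those of the other 3 pairs a 2-fold smaller rise in the first-named accession, so equal rises are not shown.

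Along the main axis of the pod transcriptomes, some of the labelled stages lay at unlike places in different accessions. Whether this axis reflects development alone was not tested. The first principal component of the 2000 most variable genes, which do not include PvPdh1, held 42.4% of their variance and ordered the stages within each accession. The MIDAS R8 libraries lay at -60.4 to -46.9, beside the R7 libraries of G12873 (-53.2 to -33.8), while the R8 libraries of G12873 lay at 51.0 to 60.9. At R7 the MIDAS libraries lay at -86.6 to -72.3, also apart from those of G12873. They overlapped the R7 libraries of ICA Bunsi (-86.8 to -76.6) and SXB405 (-88.7 to -80.5). At R9 the MIDAS libraries (31.5 to 77.6) overlapped those of G12873 (61.7 to 80.9), ICA Bunsi (41.9 to 63.7) and SXB405 (64.3 to 67.8). By the contrasts at R8, and by that with G12873 at R7, accession and developmental stage cannot be told apart. The R7 libraries of MIDAS began at 35.1 CPM of PvPdh1, and those of the other accessions ended at 24.2 CPM over all stages. The part of developmental stage in the difference was not tested.

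**Figure D4:**
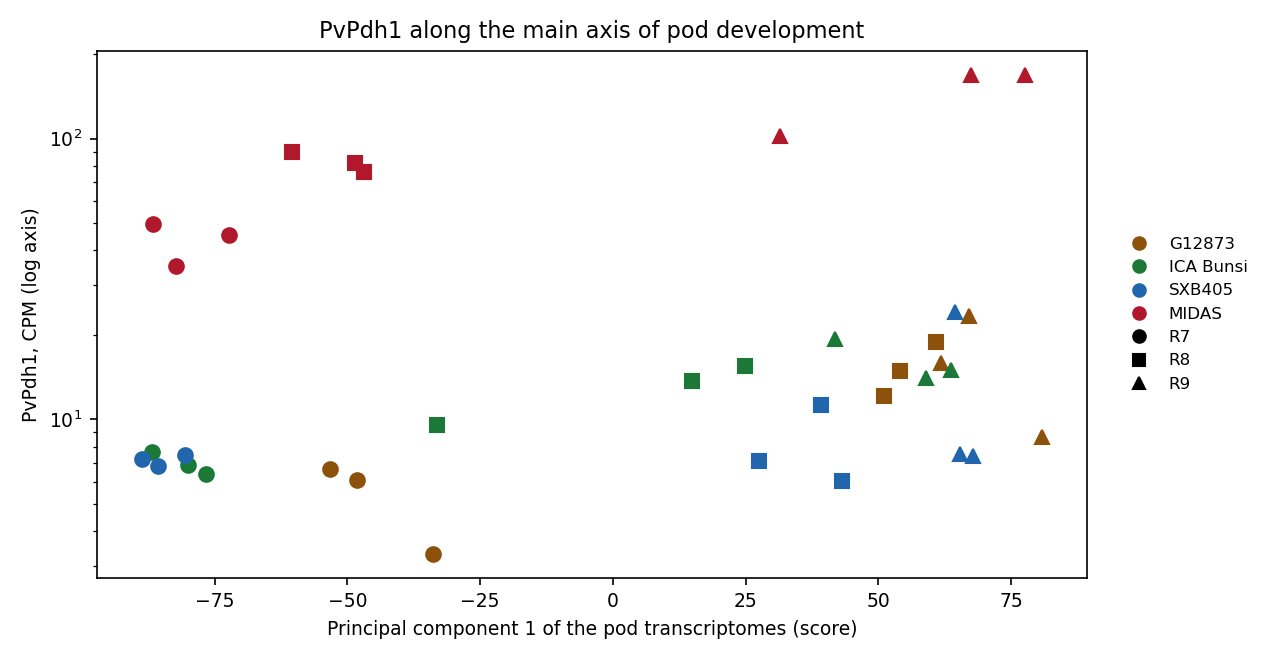
PvPdh1 (CPM, log axis) against the score of each of the 36 libraries on the first principal component. Colours are accessions and shapes are stages. The 9 MIDAS libraries lie above the other 27 in CPM. On the axis they lie at -86.6 to -72.3 at R7, -60.4 to -46.9 at R8 and 31.5 to 77.6 at R9. No MIDAS library lies between its R8 and R9 ranges.

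Genes whose levels followed PvPdh1 over the 36 libraries were ranked by Spearman's rho of log2 CPM, among 18846 genes with a mean of at least 1 CPM. The libraries share accession and stage, so rho is a description and carries no p. The median rho of all these genes was 0.023, and 23 genes were above 0.8 and 5 below -0.8. The files pair no names with identifiers, and therefore only the first 2 in each direction are named, with no role given. Depth limits their G12873 means at R7, since 3 counts make 9.96 CPM in replicate 1 and 3.03 CPM in replicate 2.

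Phvul.002G022100 had the highest rho, 0.90 (Pearson's r 0.87). Its level over the 3 stages was 5.21 ± 2.67, 16.9 ± 1.86 and 16.0 ± 2.36 CPM in G12873, against 27.8 ± 7.67, 27.1 ± 5.04 and 40.3 ± 19.3 CPM in MIDAS. Unlike that of PvPdh1, its MIDAS mean was no higher at R8 than at R7. The R9 mean rested on replicate 1, with 62.2 CPM and over 50% of its counts in the abundant set, beside 25.7 and 32.9 CPM in the other libraries. Phvul.004G014732 came next with a rho of 0.88 (r 0.82). It had 1.59 ± 1.52, 15.0 ± 7.19 and 16.3 ± 1.63 CPM over the stages of G12873 and 16.0 ± 3.46, 31.8 ± 7.15 and 73.7 ± 26.8 CPM in MIDAS. Like PvPdh1, both genes had their highest group mean in MIDAS at R9, a likeness that their choice by rho over these libraries favours.

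The lowest rho, -0.86 (r -0.89), was that of Phvul.009G105200, with 9.38 ± 0.499, 6.74 ± 0.727 and 6.04 ± 1.01 CPM over the stages of G12873, and 4.44 ± 0.475, 3.46 ± 0.533 and 3.26 ± 0.664 CPM in MIDAS. Phvul.005G074600 had a rho of -0.82 (r -0.76), with 13.1 ± 3.78, 9.43 ± 0.261 and 9.13 ± 2.96 CPM in G12873 and 5.49 ± 1.20, 5.62 ± 0.838 and 2.85 ± 2.03 CPM in MIDAS. Its MIDAS mean was thus no lower at R8 than at R7, and at R9 it held 1 library at 0.502 CPM, replicate 1, beside 2 at 4.02 CPM. In that replicate 1, 3 counts make 1.51 CPM. In TPM, where the median rho of all the genes was 0.33, the rho of these last 2 genes was 0.091 and 0.077, at ranks 1205 and 1084 from the lowest. The ranking was also not fixed among the genes of high rho, since the 10 highest shared 1 gene with the 10 highest by Pearson's r and 6 with the 10 highest without the 8 libraries over 50%. With the mean of each accession taken out, Phvul.002G022100 had a rho of 0.69 and rank 940, and Phvul.004G014732 had 0.75 and rank 311.

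**Figure D5:**
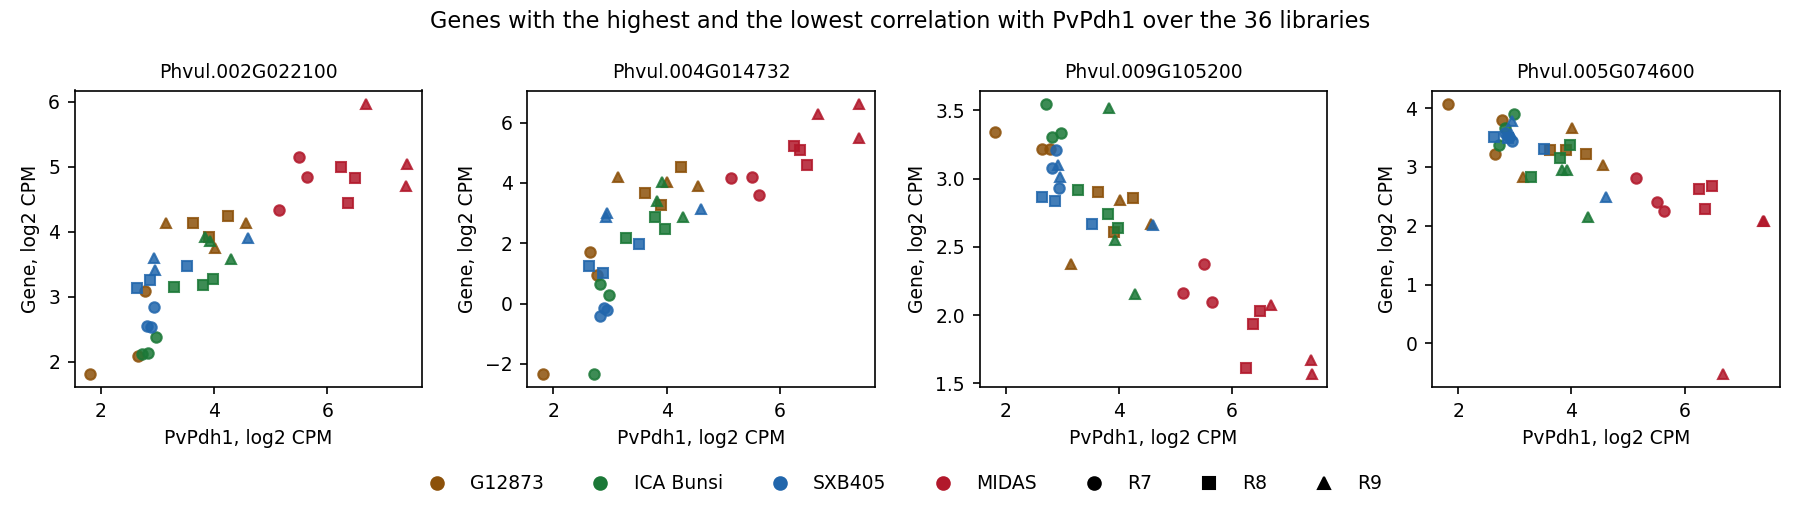
Log2 CPM of the 2 genes with the highest and the 2 with the lowest correlation with PvPdh1, against log2 CPM of PvPdh1, with 1 point per library. Colours are accessions and shapes are stages. The MIDAS libraries stand to the right in each panel. They lie above all others for Phvul.002G022100, overlap them at R7 for Phvul.004G014732 (at most 18.1 CPM, against at most 23.1 CPM in the other accessions), and lie mostly below them for the last 2 genes.

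The candidate genes of pod dehiscence PvMYB26 and PvIND had patterns of their own, taken here by the identifiers the literature gives them. Whether either acts in dehiscence was not tested. PvMYB26 (Phvul.005G157600), named after the Arabidopsis regulator of secondary wall thickening in anthers, was highest in G12873 at R7, with 49.8, 66.7 and 59.2 CPM. It was at most 0.743 CPM in any R8 or R9 library of that accession. In MIDAS it had 11.5 ± 1.58, 22.3 ± 3.18 and 2.58 ± 1.26 CPM over the 3 stages. Its rho with PvPdh1 was 0.069 over the 36 libraries and -0.67 with the mean of each accession taken out.

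PvIND (Phvul.002G271000), the homologue of Arabidopsis INDEHISCENT, a transcription factor of the valve margin, was low in most libraries. It had 17.1, 13.6 and 17.2 CPM in MIDAS at R9, and at most 4.72 CPM in any library of the other accessions. Within R9 alone, 6.05% of the genes tested had every MIDAS library above all others. Unlike PvPdh1, it lay within the range of the other accessions in MIDAS at R7 (2.77 ± 0.736 CPM) and R8 (1.83 ± 0.662 CPM), taken over all stages. Like PvPdh1 it was thus highest in mature MIDAS pods, and its rho with PvPdh1 was 0.63, rank 399 of 18846. With the mean of each accession taken out, its rho was 0.39 and its rank 5210. On the per-length scale, mature MIDAS pods had 168 ± 125 TPM of PvPdh1, 9.16 ± 5.38 TPM of PvIND and 1.04 ± 0.541 TPM of PvMYB26.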

How the data were processed

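Pod RNA went into TruSeq libraries read as single ends, per the labels' protocols. The 36 deposited tables hold lengths, estimated counts and TPM per transcript. The estimated counts, as deposited by the authors, are not normalized. The TPM values, as deposited, are scaled by the authors to effective length and to a constant library total. The submitters' processing notes name kallisto, edgeR and limma, with no version. Neither the index, the genome build nor the handling of strand is given in the sources used here, so reads of an antisense partner cannot be told apart.

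Counts were summed by gene and rounded. The test was edgeR 4.0.16 under R 4.3.3: TMM factors, filterByExpr at a minimum count of 10 and total of 15, and a robust quasi-likelihood model of the 12 groups, on 20966 genes. The 6467 genes removed did not include PvPdh1. It was compared in 36 contrasts, 12 of stages, 18 of accessions and 6 of net change, and p-values were adjusted in each over every gene in the model. Standard errors follow from the F statistic. Log2 CPM used a prior count of 2. The code was run on simulated counts with the same fixed spread for all genes and no shift of the abundant set. That run is therefore no check of how the fit handles the set.

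The gene, the lists and the contrasts were chosen with earlier results of these data known. Named genes are PvPdh1, its 2 highest and 2 lowest correlates, PvMYB26 and PvIND. A list of lignin genes was not described, since 0 of the 27433 identifiers matched the reference table. Alternatives were DESeq2 1.42.0, limma 3.58.1 (voom, and log2(TPM + 1)), RLE factors, other filters and sample sets, a replicate block, and single libraries left out. Library sizes and TPM outside the abundant set were added after seeing the data. The set was drawn from the 50 most abundant genes, as the 10 whose Spearman correlation with the leading one is over 0.9. Tables were read in Python 3.11.15 with pandas 2.3.3, and plots drawn with matplotlib 3.10.9.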

Additional observations from a re-analysis of the deposited data

How the results depend on the processing

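Values are log2 changes or differences of PvPdh1. None of the 36 contrasts changed its call or direction with limma-voom or with the replicate number as a block, where the net change of MIDAS was 1.75. The numbers pair nothing in the labels, and the mean correlation of deviations between same-numbered libraries over 66 pairs of groups was -0.0041, so the samples share only a number. In 3 of the 66 pairs every library correlated best with its own number. The 9 differences of MIDAS kept direction in every fit and their calls except with deposited TPM. The small differences among the other accessions, none of them called, changed sign most often. The cause of the changes below was not tested. Depth limits G12873 R7, where 2 of 3 libraries hold 1 and 6 counts.

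SXB405 minus ICA Bunsi at R7 was -0.024 with DESeq2, -0.026 with RLE size factors, -0.017 on only the groups compared, -0.016 without the 8 libraries over 50% and -0.094 with library sizes outside the abundant set. ICA Bunsi minus G12873 at R9 was -0.013 without the 50 most abundant genes, -0.034 with no low-count filter, -0.13 without the 8 libraries and -0.13 with library sizes outside the set. SXB405 minus ICA Bunsi was 0.067 at R9 and 0.083 in net change without the 8 libraries. With no minimum fold change, the net change of SXB405 (0.86) and the steps of MIDAS (0.93 and 0.83) were called.

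With limma on log2(TPM + 1) of the deposited TPM, MIDAS minus SXB405 was 2.06, 2.87 and 3.05 at R7, R8 and R9, MIDAS minus ICA Bunsi 2.83 and 2.43 at R7 and R8, and MIDAS minus G12873 2.10 and 2.66 at R8 and R9, none of these called. SXB405 minus G12873 at R7 was 2.18 (called). At R9 SXB405 minus ICA Bunsi was 0.67 and ICA Bunsi minus G12873 -1.06. The step from R8 to R9 was -0.32 in G12873 and -1.06 in ICA Bunsi, and that from R7 to R8 -0.27 in SXB405. None of the net changes was called: MIDAS had 0.78, SXB405 -0.21, ICA Bunsi -0.11 and G12873 2.36, and MIDAS minus G12873 in net change was -1.58.

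With TPM rescaled outside the set, the step from R8 to R9 was -0.18 in G12873 and -0.34 in ICA Bunsi, and that from R7 to R8 -0.083 in SXB405. The net change was 0.65 in ICA Bunsi and 1.36 in MIDAS, neither called, and MIDAS minus G12873 in net change was -0.89. SXB405 minus G12873 at R7 was 1.41 (called), and ICA Bunsi minus G12873 at R9 was -0.38.

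Without the 8 libraries over 50%, G12873 R7 and ICA Bunsi R9 keep 1 library each, assumed to vary like the other groups. There the calls of G12873 (1.22 from R7 to R8, 1.31 net) and of ICA Bunsi (1.07 net) were lost, and the net change of SXB405 (1.15) and the step from R7 to R8 of MIDAS (1.03) were called. On only the groups compared, G12873 lost both calls (1.26 and 1.34). With library sizes outside the set, the net call of ICA Bunsi was lost (0.80), SXB405 minus G12873 at R8 was called (-1.04) and the step from R7 to R8 in SXB405 was -0.015.

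With each library left out in turn, the values ranged as follows. In G12873 they were 1.11 to 1.52 from R7 to R8, -0.31 to 0.37 from R8 to R9 and 0.98 to 1.65 net. In ICA Bunsi they were 0.72 to 1.05 from R7 to R8 and 1.00 to 1.27 net. In SXB405 they were -0.13 to 0.36, -0.12 to 0.99 and 0.056 to 1.15 in the same order. In MIDAS the steps were 0.80 to 1.04 and 0.68 to 1.01. SXB405 minus ICA Bunsi was -0.015 to 0.11 at R7 and -1.11 to -0.013 at R9. SXB405 minus G12873 was -1.21 to -0.72 at R8 and -1.10 to 0.092 at R9, and ICA Bunsi minus G12873 at R9 was -0.32 to 0.40. In net change MIDAS minus SXB405 was 0.61 to 1.71 and ICA Bunsi minus G12873 -0.47 to 0.22. In TPM the correlations of Phvul.009G105200 and Phvul.005G074600 with PvPdh1 were 0.091 and 0.077, against a median of 0.33 over all genes.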
